A study of Mus musculus with 57 samples.

Results

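Ly6C-high cells sorted from the liver were compared with Ly6C-high monocytes sorted from the blood. The liver gate is named by the labels as recruited macrophages (CD11b-high, Ly6C-high), and the blood gate as peripheral monocytes. Both came from C57BL/6J mice on a NASH diet, a feeding that brings on fatty liver with inflammation (non-alcoholic steatohepatitis). The comparison rests on 4 of the 57 libraries of the study, 2 from liver and 2 from blood, and takes in every gene of the count table with 1 transcript per symbol. Of 24940 genes, 14407 passed the filter on low counts and were tested. Beside them stand 8 libraries of the same set, 2 each of 4 further liver gates. These are Ly6C-low recruited macrophages, F4/80-high Tim4-negative macrophages of the Kupffer cell niche and F4/80-high Tim4-positive Kupffer cells, all on the NASH diet, and Kupffer cells on a control diet. The labels give these groups no transgene or deletion. Age, weeks of diet and whether replicates are separate animals are not given in the sources used here, so p-values measure only the spread between these libraries, which may be technical. Liver cells were freed by perfusion with Liberase and 1 µM flavopiridol, which blocks transcription, and enriched by spins and density gradients before the sort. The labels' protocol describes only the liver preparation, and no equal account of the blood sort is given in the sources used here.

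Ly6C-high monocytes, often called classical monocytes, leave the bone marrow with the help of the chemokine receptor Ccr2 and enter inflamed tissue from the blood. There they lose monocyte genes and take on genes of macrophages, such as those for antigen presentation, uptake of dead cells and lipid handling. A sort from liver also passes through a digest in which hepatocytes, sinusoidal endothelium and stellate cells (the vitamin A storing, collagen making cells) release RNA and cell fragments. Transcripts of these cells were therefore set apart from those that monocytes or macrophages make.

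Total counts were 14634430 and 16060185 in the liver libraries and 20206649 and 12368138 in the blood libraries, and the 12 libraries fitted together ran from 12368138 to 22707564. Replicates differed by more than sampling noise, with a chi-square of 19.0 to 34.6 per degree of freedom over their counts. The unit of level is CPM, a gene's counts relative to the TMM-scaled total of its library, with replicate 1 before replicate 2. A gene counts as called where edgeR's quasi-likelihood test gave a Benjamini-Hochberg adjusted p below 0.05 over all genes tested. Of the 14407 genes, 7000 were called (48.6%), 3933 higher in liver (27.3%) and 3067 lower (21.3%). A test against a 2-fold change kept 2801 (19.4%), 2478 higher (17.2%) and 323 lower (2.24%). The large differences lay on the liver side, since 2042 called genes were at least 8-fold higher in liver and 63 at least 8-fold lower. With no counts in blood and 10 CPM or more in liver there were 202 genes, against 3 the other way round. The median over all genes tested was a log2 fold of -0.01.

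The genes of the gates were looked at first. Ly6c2, which encodes the Ly6C antigen (NM_001099217, chromosome 15, 75108161 to 75111971, GRCm38), stood at 367 and 282 CPM in liver and 805 and 917 in blood. Both liver libraries were below both blood libraries, 2.65-fold (log2 -1.41 ± 0.17 SE, adjusted p = 8.25e-05 in edgeR), but far above the 1.80 CPM of Ly6C-low liver macrophages. Itgam, the gene of CD11b, did not pass (1116 and 1259 against 1352 and 1576 CPM, adjusted p = 0.396 in edgeR). Nor did Adgre1, the gene of F4/80 (407 and 368 against 289 and 335 CPM, adjusted p = 0.227 in edgeR), which reached a mean of 1942 CPM in NASH Kupffer cells. The Kupffer cell gene Clec4f was at 39.3 and 58.4 CPM in the liver Ly6C-high libraries, against a mean of 5596 in NASH Kupffer cells and 2 counts in blood. The gate gene Ly6c2 was therefore high in these libraries and the Kupffer cell gene low.

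RNA of other liver cells was plain in both liver libraries. Among 30 hepatocyte genes 29 were higher in liver and 0 lower, and 23 had no counts in blood. Albumin, Alb (chromosome 5, 90460870 to 90476602), stood at 852 and 2515 CPM in liver and 0 in both blood libraries. Liver replicate 2 carried the higher level, and against a floor of 3 counts over the blood libraries the difference was at least 18734-fold, or at least 9480-fold from liver replicate 1 alone. Cyp2e1, a cytochrome P450 of hepatocytes, was at 206 and 378 CPM against 0 and 0, at least 3252-fold higher. Over the tested hepatocyte genes the level in liver replicate 2 was 2.60 times that in replicate 1 at the median. The median log2 fold of the list was 12.53 as fitted and 9.26 with genes at 0 set to their floor. Trf (transferrin) was the hepatocyte marker with the most RNA in blood, at 222 and 426 CPM against 732 and 1222 in liver. The 29 calls went down to 16 once scaled whole liver and Kupffer levels were subtracted from the liver counts. This list itself set the whole liver scale, so a fall is built into the subtraction.

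Sinusoidal endothelial genes were higher in liver in 34 of 36, with 0 lower. Ptprb, an endothelial receptor phosphatase (NM_029928, chromosome 10, 116301374 to 116389538), stood at 212 and 249 CPM in liver and 0 and 0 in blood, at least 2564-fold higher. Kdr, the receptor of vascular endothelial growth factor, was at 105 and 117 CPM against 0.759 and 0.651 (log2 7.26 ± 0.29, adjusted p = 4.29e-08 in edgeR). Both liver libraries were high and close to each other for these genes, and over the list replicate 2 stood at 1.08 times replicate 1, unlike the hepatocyte genes. The median log2 fold of the list was 9.34 as fitted and 7.75 with genes at 0 set to their floor. The 2 members not called were Nrp1 (224 and 250 against 242 and 289 CPM, adjusted p = 0.442 in edgeR) and Fcgr2b (421 and 448 against 212 and 310, adjusted p = 0.0548).

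Stellate cell and fibroblast genes were higher in 26 of 29 tested, with 0 lower. Biglycan, Bgn (NM_007542, chromosome X, 73483601 to 73495936), stood at 206 and 228 CPM in liver and 0 and 0 in blood, at least 2411-fold higher. Col1a1, a chain of type I collagen, was at 97.6 and 123 CPM against 0 and 0, at least 1229-fold higher. Lrat, the retinol-storing enzyme of quiescent stellate cells, was at 7.59 and 9.56 CPM, at least 95.4-fold higher. Acta2, the smooth muscle actin of activated stellate cells, was low on both sides (8.22 and 7.23 against 10.8 and 12.2 CPM, adjusted p = 0.325 in edgeR). Replicate 2 stood at 1.11 times replicate 1 over the list, and the median log2 fold was 8.94 as fitted and 6.98 at the floor. The stellate genes were near equal in both liver libraries, as the endothelial genes were.

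Summed over each list, hepatocyte genes reached 2829 and 7065 CPM in liver against 233 and 434 in blood, endothelial genes 2871 and 3105 against 532 and 702, and stellate genes 1287 and 1410 against 89.3 and 100.2. All 3 sums were higher in the liver Ly6C-high libraries than in any library of the other NASH liver gates, where they ran from 826 to 2373, 1210 to 2083 and 489 to 1003 CPM. In Kupffer cells of the control diet the hepatocyte sum was 2963 and 4187 CPM, above that of liver Ly6C-high replicate 1, while the endothelial (1900 and 1816) and stellate sums (649 and 568) were lower, as the plot of marker sums shows. Kupffer cell identity genes were the other way round, with 761 and 872 CPM against 178 and 185 in blood and 35180 and 30650 in NASH Kupffer cells. Of 22 such genes, 16 were higher in liver than in blood and 0 lower. Cd5l, a secreted scavenger protein of Kupffer cells, was at 132 and 199 CPM, with 1 count in blood and a mean of 15116 CPM in NASH Kupffer cells. Once the scaled references were subtracted neither Cd5l (log2 -2.29, adjusted p = 0.507 in edgeR) nor Clec4f (log2 -3.13, adjusted p = 0.258) was called. Both are among the genes that set the Kupffer scale, so a fall is built into the subtraction and says nothing of where their RNA came from.

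**Figure D1:**
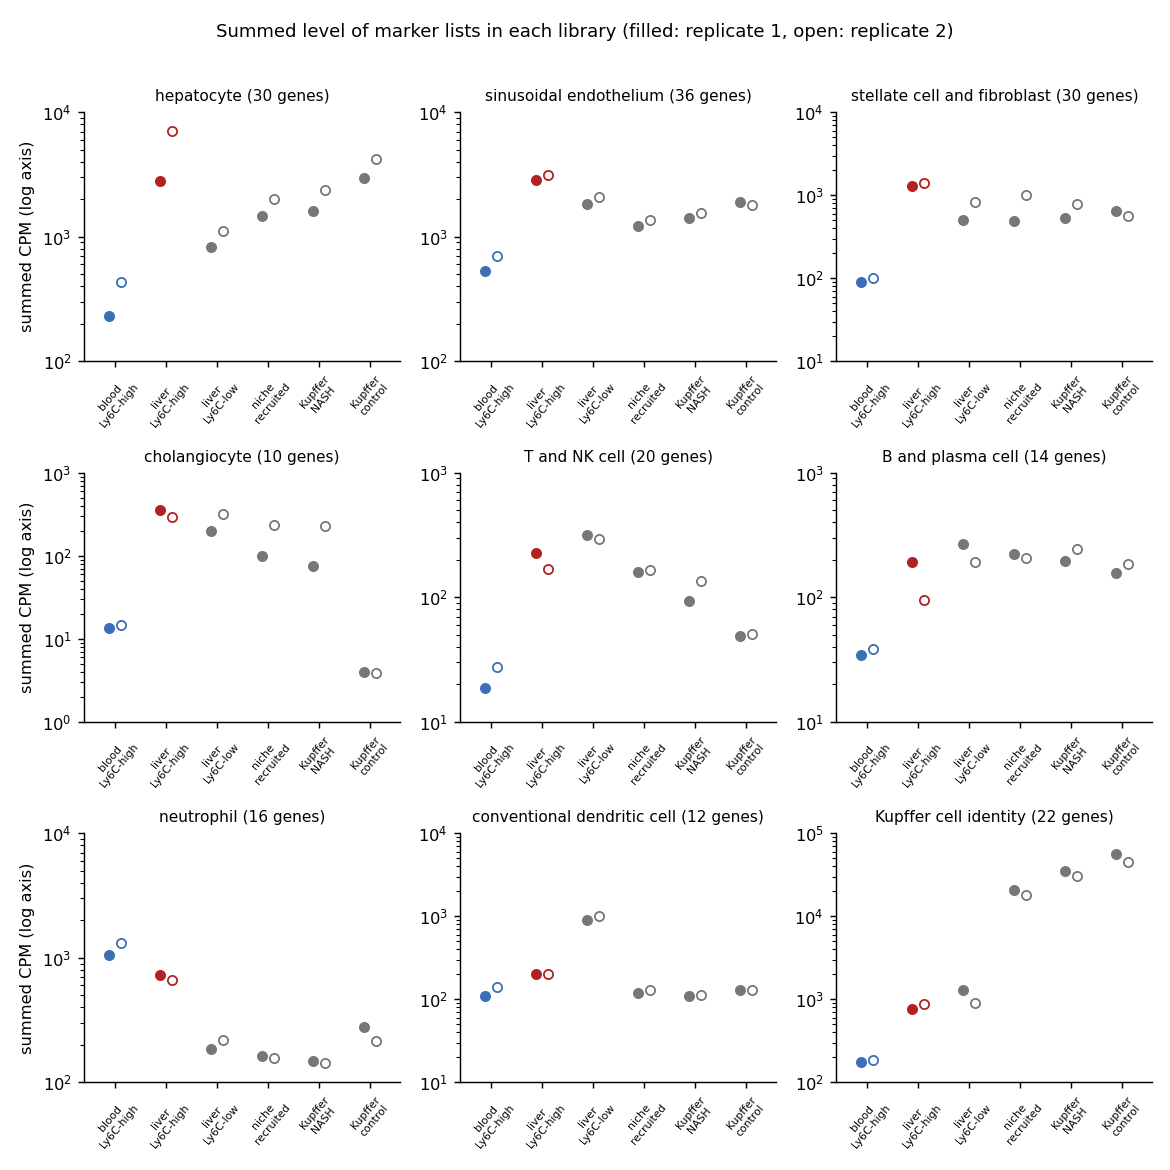
Summed CPM (log axis) of 9 marker lists in each of the 12 libraries; each dot is 1 library, filled for replicate 1 and open for replicate 2, with liver Ly6C-high in red, blood in blue and the other gates in grey. Hepatocyte, endothelial and stellate sums are highest in the liver Ly6C-high libraries among the NASH liver gates (2829 and 7065, 2871 and 3105, 1287 and 1410), while the Kupffer identity sum lies far below that of the Kupffer cells.

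Marker genes of lymphoid cells had smaller sums, and the source of their RNA was not tested. T and NK cell genes were higher in liver in 17 of 20, with sums of 226 and 168 CPM against 18.6 and 27.8, and Lck, a T cell kinase, was at 20.7 and 14 CPM against 0.569 and 1.14. B and plasma cell genes were higher in 13 of 14, with sums of 194 and 94.6 CPM against 34.3 and 38.5; without liver replicate 1, which had the higher sum, 7 stayed called. Dendritic cell genes were higher in 9 of 12 (sums of 200 and 201 against 111 and 142 CPM), with Flt3, the receptor that marks the lineage, not called (56.4 and 39.7 against 32.7 and 61.1 CPM, adjusted p = 0.902 in edgeR). Of 14 neutrophil genes 4 were higher and 3 lower, near the shares over all genes tested (27.3% and 21.3%). They summed to less in liver (729 and 663 against 1052 and 1309 CPM). Red cell genes were lower in liver in 6 of 8 tested. Hbb-bs, an adult beta globin, stood at 92.5 and 426 CPM in blood and 0.632 and 0.350 in liver (log2 -9.03 ± 1.5, adjusted p = 0.000569 in edgeR; -9.76 without blood replicate 1 and -7.56 without blood replicate 2). Hba-a1 and Hba-a2 are near-identical copies that reads cannot separate.

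The 3933 genes higher in liver were then divided. A whole liver reference (10 libraries of mice fed for 4 weeks on a high-fat diet lacking choline, labelled negative for the Clec4f-Cre DTR alleles) was scaled to each liver library by the median ratio over the 30 hepatocyte genes. The scale was 1.42% in replicate 1 and 3.90% in replicate 2, and single hepatocyte genes ran from 0.525% to 19.4% and from 1.17% to 35.5%. NASH Kupffer cells, scaled by 7 of their genes with Clec4f and Cd5l among them, came to 1.12% and 1.53%. Of the genes higher in liver, 165 (4.20%) were on a list of other cells. In a further 408 (10.4%) scaled whole liver came to 50% or more of the liver level, and in 16 (0.407%) scaled Kupffer cells did. Another 1062 (27.0%) had 3 counts or fewer over both blood libraries, most at low level, with a median of 1.82 CPM in liver. The remaining 2282 (58.0%) were detected in blood and set apart by none of these, and 975 of them passed the 2-fold test. No sorted endothelial or stellate sample was among the libraries, so these cells were set apart by their marker lists alone. The whole liver came from another diet, which also bears on the scale.

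By RNA mass these classes lay far apart. Genes on the lists of other cells held 0.787% and 1.23% of the CPM of the liver libraries, those of scaled whole liver 0.337% and 0.746%, and those near 0 in blood 0.500% and 0.668%. The remaining 2282 genes held 19.1% and 19.5% of liver CPM and 9.40% and 9.36% of blood CPM. Their median log2 fold was 1.47, against 6.37 for the other-cell genes and 4.65 for those near 0 in blood, both with genes at 0 set to their floor. Most of the extreme folds thus came from little RNA, and most of the RNA that was higher in liver came from genes also detected in blood. In bulk libraries fewer cells of a type and less RNA per cell cannot be told apart.

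**Figure D2:**
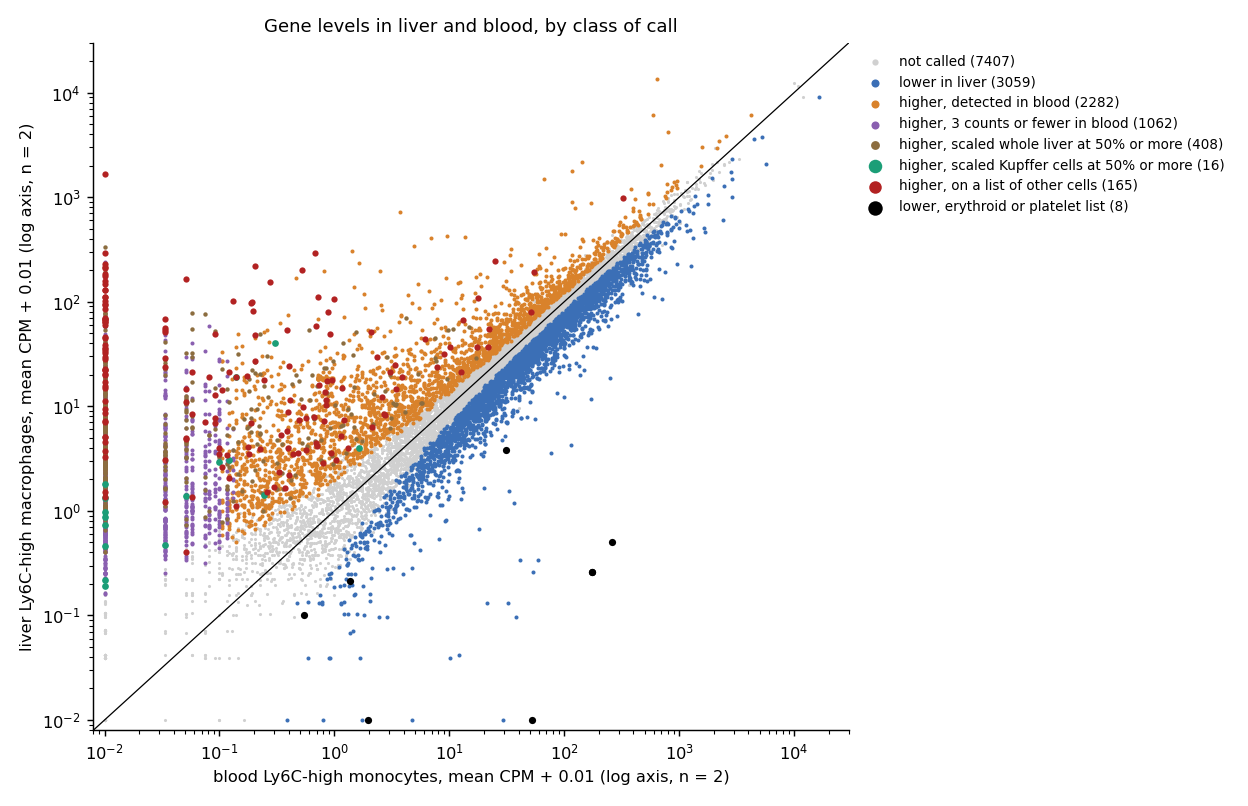
Mean CPM plus 0.01 of each of the 14407 genes tested in blood (x, n = 2, log axis) and liver Ly6C-high cells (y, n = 2, log axis), coloured by class; the line marks equal levels. The left edge holds many of the other-cell genes (165) and of the genes near 0 in blood (1062), and the 2282 remaining higher genes run along the diagonal above the 7407 not called.

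A further measure asked where the liver Ly6C-high libraries stood among the 6 libraries of the 3 other NASH liver gates. It was chosen after the levels had been seen and has no test, and libraries with the same replicate number in these gates deviated together (correlations of 0.288 to 0.494), so the 6 are not independent of the liver Ly6C-high libraries. Over all genes tested, both liver Ly6C-high libraries lay above all 6 in 18.8% and below all 6 in 15.7%. They lay above all 6 in 28 of 30 hepatocyte, 29 of 36 endothelial and 13 of 29 stellate genes, and in 83.8% of the scaled whole liver class. Genes near 0 in blood lay above all 6 in 45.1%, and genes called higher on the lists of other cells in 47.3%. Those lists were unlike each other, with 28 of 29 hepatocyte and 0 of 13 B and plasma cell genes called higher above all 6. Where the RNA of the genes near 0 in blood came from was not tested. The remaining 2282 genes lay above all 6 in 14.7% and below all 6 in 33.0%. In these 33.0% the liver Ly6C-high level was called higher than blood and lay below every library of the other NASH liver gates. Hspg2 (perlecan), at 162 and 173 CPM against 0 and 0 and at least 1868-fold higher, had the highest mean liver level among the genes near 0 in blood after the hepatocyte gene Pzp (123 and 353 CPM).

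**Figure D3:**
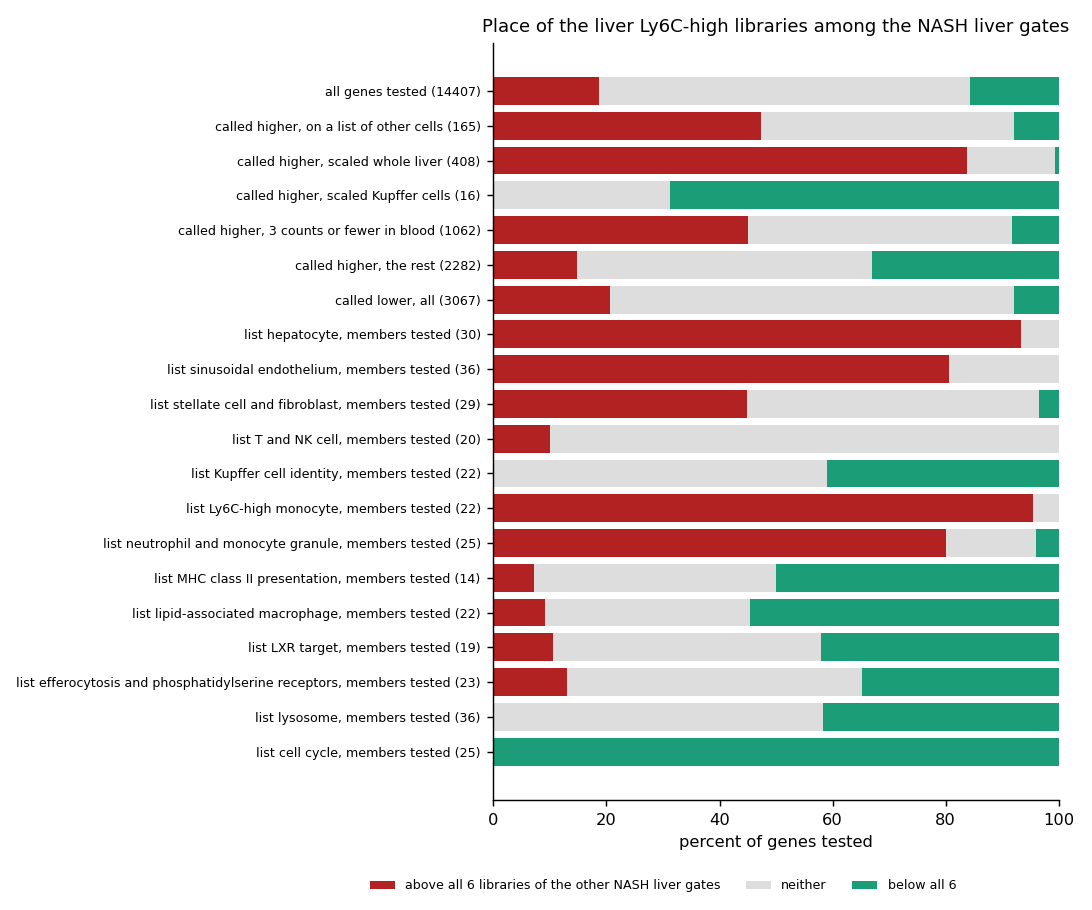
Share of genes (percent of genes tested in each set, number in parentheses) for which both liver Ly6C-high libraries lie above all 6 libraries of the other NASH liver gates (red), below all 6 (green) or neither (grey). Hepatocyte and endothelial genes are mostly red (28 of 30 and 29 of 36), as are Ly6C-high monocyte genes (21 of 22); cell cycle genes are all green (25 of 25).

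Ly6C-high monocyte genes were lower in liver than in blood in 17 of 22, with 1 higher, and summed to 18680 and 16720 CPM against 28300 and 35140. The median log2 fold was -1.04, and 6 were lower past 2-fold. Ccr2, the receptor for entry into tissue (NM_009915, chromosome 9, 124102183 to 124109140), stood at 1336 and 1614 CPM in liver and 2521 and 3285 in blood. Both liver libraries were lower, 1.97-fold (log2 -0.98 ± 0.18, adjusted p = 0.00127 in edgeR), and both were above the means of 788 CPM in Ly6C-low macrophages, 198 in niche macrophages and 26.1 in NASH Kupffer cells. Vcan (versican, a matrix proteoglycan of classical monocytes) was at 534 and 387 CPM against 1381 and 1999 (log2 -1.87 ± 0.20, adjusted p = 2.75e-05). Chil3, a chitinase-like secreted protein, was at 719 and 496 against 2054 and 2717 (log2 -1.97 ± 0.23, adjusted p = 5.05e-05) and at a mean of 4.19 CPM in Ly6C-low macrophages. For each of these genes the liver and blood libraries did not overlap, as in 74.7% of all genes tested.

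Not all monocyte genes moved alike. F13a1, the A chain of coagulation factor XIII, was 2.85-fold lower (1150 and 873 against 2498 and 3272 CPM, log2 -1.51 ± 0.24, adjusted p = 0.000479 in edgeR). Fn1 (fibronectin) did not pass, at 10130 and 8110 CPM in liver and 10972 and 13030 in blood (adjusted p = 0.377 in edgeR), while its mean in Ly6C-low macrophages was 1200 and in NASH Kupffer cells 44.9 CPM. Thbs1 (thrombospondin 1) was the only member higher in liver, at 305 and 236 against 43.6 and 120 CPM (log2 1.73, adjusted p = 0.0245), and its call ended without liver replicate 1 (adjusted p = 0.0969) or without blood replicate 1 (adjusted p = 0.163). Both liver libraries lay above all 6 libraries of the other NASH liver gates in 21 of 22 monocyte genes, so their level, mostly below blood, was yet the highest among the NASH liver gates. Of 25 granule genes of neutrophils and monocytes 13 were lower and 4 higher (median log2 -0.70; 8 lower without liver replicate 1). Mmp8, a collagenase stored in granules, was at 79.4 and 50.4 CPM against 181 and 274 (log2 -1.81, adjusted p = 0.000454), and Prtn3 (proteinase 3) at 8.16 and 7.28 against 23.1 and 20.7.

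**Figure D4:**
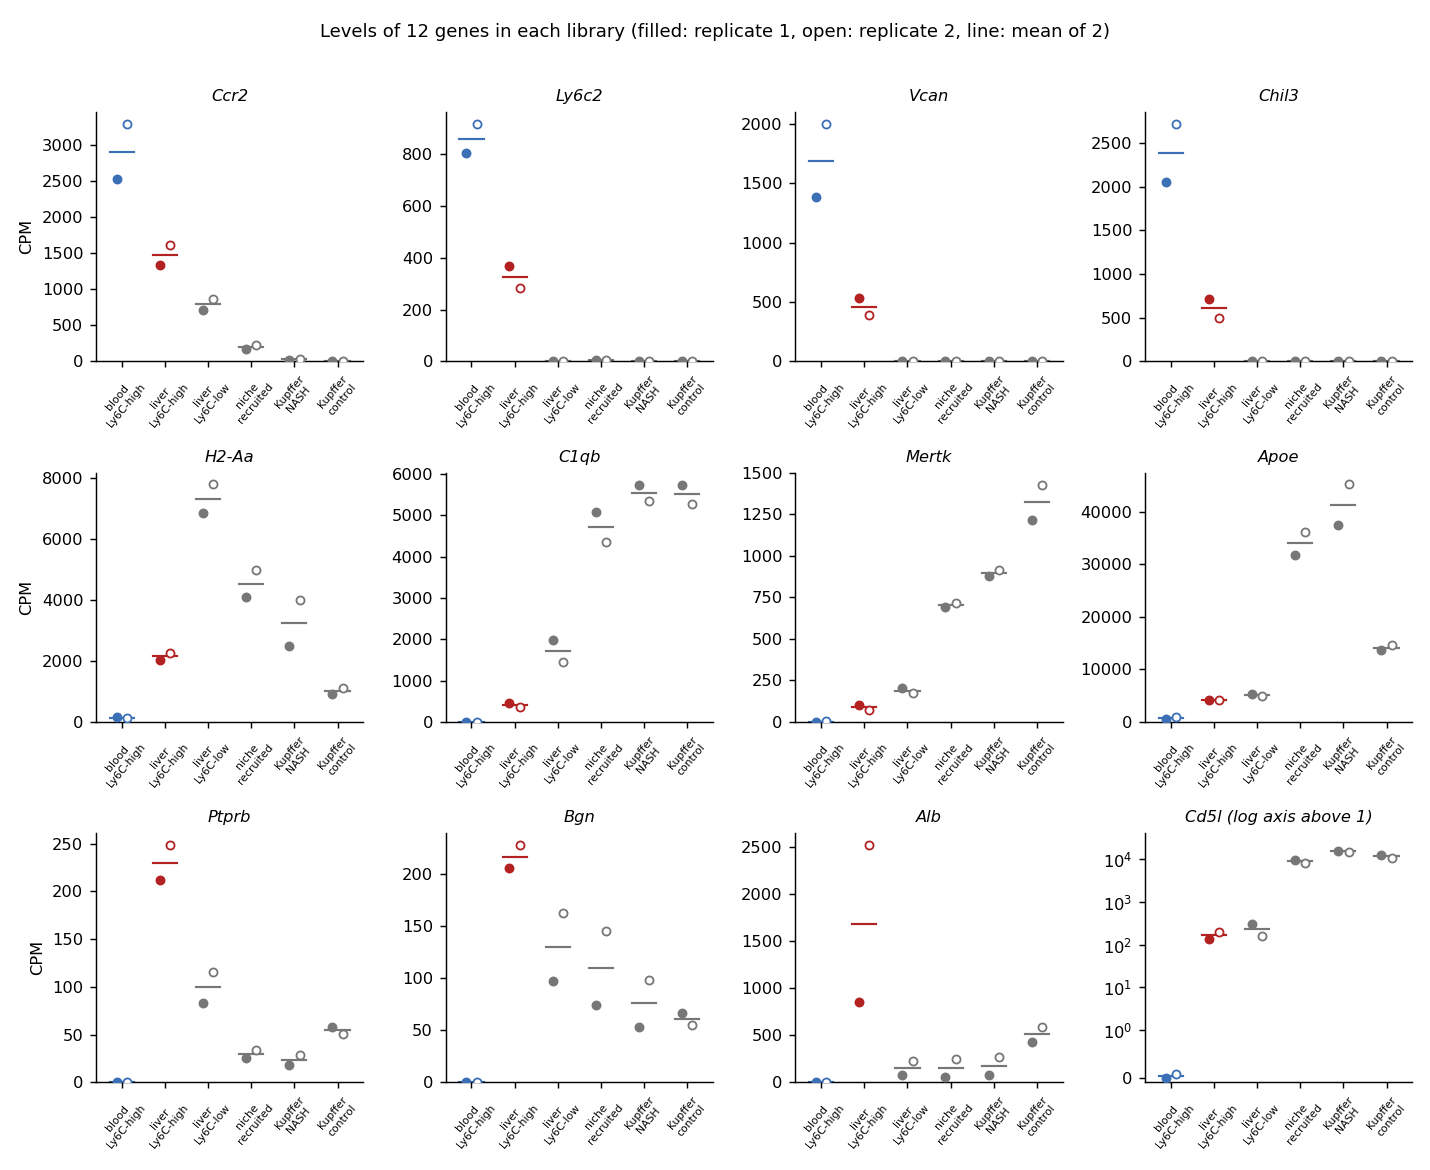
CPM of 12 genes in each library (dots; filled for replicate 1, open for replicate 2) with the mean of 2 as a line; linear axes from 0, except a log axis for Cd5l. Ccr2, Ly6c2, Vcan and Chil3 step down from blood to liver Ly6C-high cells, and H2-Aa, C1qb, Mertk and Apoe step up. Among the NASH liver gates, Ptprb, Bgn and Alb are highest in the liver Ly6C-high libraries.

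Antigen presentation genes of MHC class II, which load peptides and show them to CD4 T cells, were higher in liver in 12 of 14 and lower in 0, with 9 past 2-fold and a median log2 fold of 1.77. All 12 were detected in blood and none was set apart by a reference. Summed, the list went from 2935 and 2669 CPM in blood to 13940 and 14870 in liver. Markers of dendritic and B cells, which also express class II, were higher in the same libraries (9 of 12 and 13 of 14 called, with sums of 200 and 201 CPM against 111 and 142, and 194 and 94.6 against 34.3 and 38.5), and their part in the class II level was not tested. H2-Aa, an alpha chain (NM_010378, chromosome 17, 34282751 to 34287771), stood at 2031 and 2264 CPM in liver and 156 and 128 in blood, 15.1-fold higher (log2 3.92 ± 0.24, adjusted p = 6.59e-07 in edgeR). H2-Eb1, a beta chain (NM_010382, chromosome 17, 34305867 to 34316674), was at 1478 and 1526 CPM against 75.9 and 58.1 (log2 4.48 ± 0.27, adjusted p = 5.52e-07). Replicates lay close together and the groups far apart for both chains. Cd74, the invariant chain that guides class II molecules to the endosome, was at 6116 and 6179 CPM against 694 and 481 (log2 3.39, adjusted p = 2.12e-06).

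Ciita encodes the coactivator that switches class II genes on (NM_001302619, chromosome 16, 10480072 to 10527640). It stood at 299 and 276 CPM in liver and 79.2 and 42.0 in blood, 4.72-fold higher (log2 2.24 ± 0.26, adjusted p = 5.31e-05 in edgeR). The peptide editors were higher by less, H2-DMb1 at 131 and 170 against 63.0 and 42.5 CPM (log2 1.51 ± 0.23) and H2-DMa at 235 and 264 against 143 and 113 (log2 0.96). H2-Ob, a brake on that editing, was at 22.6 and 16.8 CPM against 3.60 and 4.07 (log2 2.37 ± 0.22). Both members not called encode co-stimulators, Cd80 (16 and 14.9 against 9.77 and 13.9 CPM, adjusted p = 0.116 in edgeR) and Cd40 (47.2 and 48.5 against 49.3 and 29.9, adjusted p = 0.481), while Cd86 was called (53.5 and 55.7 against 23.3 and 29.8, log2 1.05). Per length, H2-Aa reached a mean of 3004 TPM (a level scaled by transcript length) in liver against 1344 for H2-Eb1 and 75.7 for Ciita. In Ly6C-low macrophages the class II sum was higher again, 41920 and 42770 CPM, so the liver Ly6C-high level lay between blood and that gate. Class I genes had 3 higher and 1 lower of 15, with a median log2 fold of -0.03.

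The promoters of class II genes are known for a shared X box and Y box, bound by the complex on which Ciita acts, and 4 genes higher in liver carried both in RefSeq's windows of GRCm38.p6 (250 bases before to 50 after the start). The letters searched on both strands were CTNGNAAC for the X box and GATTGG for the Y box, chosen after these promoters had been looked at. The pair in 1 orientation with 20 to 30 bases between was in 17 of 32851 windows (0.0518%), the X letters alone in 13.2% and the Y letters in 16.1%. Of the 14 genes of the list 9 had a window, 4 held the pair, and 7 held the Y letters. Each stretch is given 5′ to 3′ on the strand of its gene, X box letters first and Y box letters second in capitals, and shows what these members share. A match is a description of letters and not of binding.
H2-Aa (chr17:34287857-34287917, minus strand): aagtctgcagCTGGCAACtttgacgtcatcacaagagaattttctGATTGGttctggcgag
H2-Eb1 (chr17:34305763-34305822, plus strand): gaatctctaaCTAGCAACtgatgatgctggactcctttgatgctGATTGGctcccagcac
H2-DMb1 (chr17:34153084-34153144, plus strand): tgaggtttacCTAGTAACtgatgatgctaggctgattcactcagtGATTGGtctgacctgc
H2-Ob (chr17:34238805-34238862, plus strand): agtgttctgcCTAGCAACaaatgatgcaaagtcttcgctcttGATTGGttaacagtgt
The letters lay 84 to 97 bases before the start (first base of the X box) with 24 to 27 bases between both boxes, and the fold of these 4 genes ran from log2 1.51 for H2-DMb1 to 4.48 for H2-Eb1.

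Genes for the uptake of dead cells were mostly higher in liver. Of 23 efferocytosis genes 16 were higher in liver, 10 past 2-fold, and 3 lower, with a median log2 fold of 1.30. The list takes in Timd4 of the Kupffer identity list, Stab2 of the endothelial list and Itgb3 of the platelet list. In 1 member scaled whole liver or scaled Kupffer cells came to 50% or more of the liver level. Mertk, a receptor kinase that recognises dying cells through bridging proteins (NM_008587, chromosome 2, 128698915 to 128803007), stood at 104 and 72.4 CPM against 1.37 and 2.28. Both liver libraries were far above blood (log2 5.65 ± 0.26, adjusted p = 1.03e-07 in edgeR) and far below the means of 703 CPM in niche macrophages and 896 in NASH Kupffer cells. Axl, a kinase of the same family, was at 947 and 856 CPM against 105 and 129 (log2 2.94 ± 0.14, adjusted p = 1.28e-07). Their bridging ligand Gas6 was at 34.8 and 62.3 CPM with 5 counts in blood, and its liver level was above the mean of Ly6C-low macrophages (23.9 CPM). Stab1, a scavenger receptor shared by macrophages and sinusoidal endothelium, was at 433 and 410 CPM against 8.68 and 10.3 (log2 5.48 ± 0.24, adjusted p = 8.76e-08). What part of the Stab1 and Gas6 levels came from endothelial RNA, which moved with the same libraries (sums of 2871 and 3105 CPM against 532 and 702), was not tested. Anxa1, a protein that calms inflammation, was lower (152 and 140 against 445 and 353 CPM, log2 -1.45, adjusted p = 0.00116).

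Of 20 complement genes 13 were higher and 3 lower, with a median log2 fold of 2.77. Vsig4, a member, also stood on the Kupffer identity list. In 1 member scaled whole liver or scaled Kupffer cells came to 50% or more of the liver level. The 3 chains of C1q, which tags cells and debris for uptake, were all higher. C1qb (NM_009777, chromosome 4, 136880145 to 136886177) was at 464 and 349 CPM in liver and 8.25 and 5.70 in blood, 57.3-fold higher (log2 5.84 ± 0.26, adjusted p = 7.84e-08 in edgeR). C1qa was at 143 and 136 CPM against 1.71 and 1.22, and C1qc at 207 and 185 against 3.08 and 1.87. All liver values were above all blood values, yet the C1qb mean was 1725 CPM in Ly6C-low macrophages and 5542 in NASH Kupffer cells. The scaled Kupffer reference made up 22.4% of the liver level of C1qa, 15.5% of C1qb and 22.4% of C1qc. C3ar1, the receptor for the fragment C3a, was at 207 and 129 CPM against 8.06 and 10.5 (log2 4.19 ± 0.27, adjusted p = 9.1e-07). Among scavenger and lectin receptors 10 of 24 were higher and 1 lower (median log2 0.54), with Mrc1, the mannose receptor, at 152 and 148 CPM against 9.20 and 14.6 and Cd36, a receptor for oxidised lipids, at 177 and 131 against 8.20 and 16.4 (log2 3.68 for both).

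Of 22 genes of lipid-associated macrophages, the Trem2-expressing cells of fatty tissue, 16 were higher and 0 lower (13 past 2-fold, median log2 1.87). Apoe, the carrier of cholesterol out of cells (NM_009696, chromosome 7, 19696244 to 19699188), stood at 4106 and 4253 CPM in liver and 615 and 968 in blood, 5.28-fold higher (log2 2.40 ± 0.21, adjusted p = 6.68e-06 in edgeR). Both liver libraries were close, and the means in niche macrophages (33991 CPM) and NASH Kupffer cells (41297) were far higher still. Lpl (lipoprotein lipase) was at 961 and 618 CPM against 86.0 and 162 (log2 2.67 ± 0.33, adjusted p = 7.45e-05). Gpnmb, a membrane protein of lysosome-rich macrophages, was at 472 and 209 CPM against 6.64 and 3.26 (log2 6.05 ± 0.47, 6.70 without blood replicate 1 and 5.34 without liver replicate 1), and at a mean of 2.93 in Kupffer cells of the control diet. Trem2 itself was 2.20-fold higher (109 and 111 against 63.9 and 35.2 CPM, adjusted p = 0.00178), and Lgals3 did not pass (1192 and 905 against 959 and 737, adjusted p = 0.137). Spp1 (osteopontin), on this list and on the cholangiocyte list, was at 336 and 248 CPM against 1.09 and 0.244, higher than the mean of each other gate. Of the other cholangiocyte genes the keratin Krt18 was at 4.17 and 11.3 CPM and Krt7 did not pass (5.88 and 5.94 against 3.93 and 4.23 CPM, adjusted p = 0.198). Spp1 held most of that list's sum (361 and 293 CPM), and the part of cholangiocyte RNA in its level was not tested.

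Targets of LXR, the sterol sensing receptors, were higher in 14 and lower in 1 of 19 (median log2 2.22). The list takes in Cd5l and Nr1h3, which also stood on the Kupffer identity list. In 2 members scaled whole liver or scaled Kupffer cells came to 50% or more of the liver level. Abca1, which exports cholesterol, was at 318 and 335 CPM against 54.8 and 83.1 (log2 2.25, adjusted p = 4.53e-06 in edgeR), and Pltp, which transfers phospholipids, at 447 and 432 against 89.9 and 99.1 (log2 2.22, adjusted p = 1.53e-06). Nr1h3, the gene of LXR alpha, was at 112 and 103 CPM against 19.5 and 15.8 (log2 2.60 ± 0.21, adjusted p = 3.46e-06). Liver libraries did not overlap with blood in any of these, as in 74.7% of all genes tested. Scd1, the desaturase that makes monounsaturated fat in hepatocytes and macrophages, was at 399 and 1056 CPM against 3.08 and 4.39 (log2 7.64; 6.77 without liver replicate 2). Liver replicate 2 was the higher, as for hepatocyte genes. Scaled whole liver, which came from another diet, made up 0.622% of the Scd1 level, and the part of hepatocyte RNA in it was not tested. Of 36 lysosome genes 19 were higher and 0 lower, by little (median log2 0.46, 5 past 2-fold). Among them Ctsd (cathepsin D) was at 1294 and 1091 CPM against 364 and 400 (log2 1.64 ± 0.14, adjusted p = 5.28e-06) and Ctsb (cathepsin B) at 3213 and 2791 against 1474 and 1704 (log2 0.92 ± 0.13, adjusted p = 0.000237). Both liver libraries lay below all 6 libraries of the other gates in 15 of the 36 lysosome genes and above in 0.

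**Figure D5:**
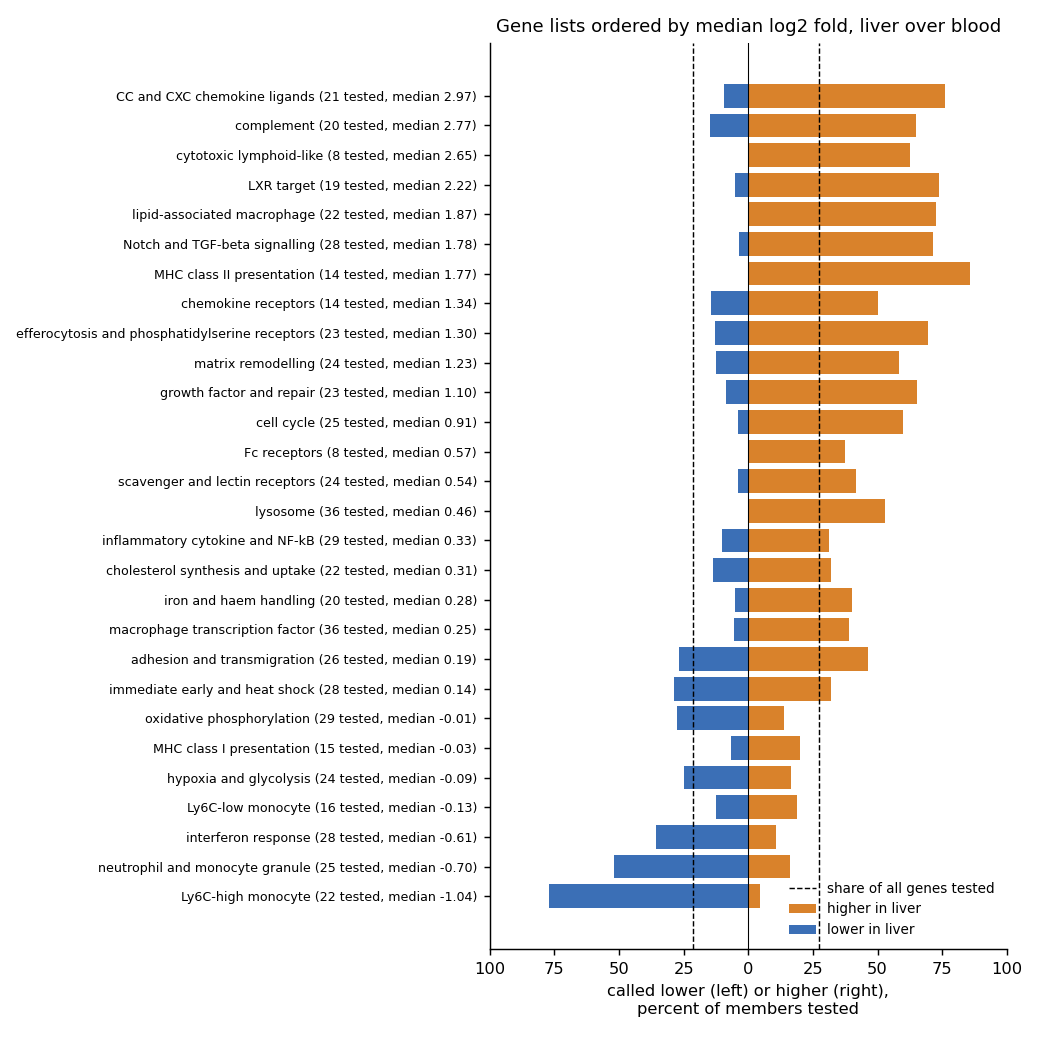
Members called higher (orange, right) or lower (blue, left) in liver as percent of members tested, for the 28 lists of monocyte and macrophage biology, ordered by median log2 fold with genes at 0 set to their floor; dashed lines mark the shares of all genes tested (27.3% higher, 21.3% lower). Ly6C-high monocyte genes stand out on the left (17 of 22 lower) and class II genes on the right (12 of 14 higher).

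Chemokine ligands were higher in 16 and lower in 2 of 21, with 6 members at no counts in blood and a median log2 fold of 2.97 with these at their floor. Their sum was the other way, 810 and 831 CPM in liver against 1185 and 1695 in blood. Cxcl16, a membrane-bound ligand for Cxcr6 on T and NKT cells, was at 120 and 136 CPM in liver and 8.63 and 4.64 in blood, 18.7-fold higher (log2 4.23 ± 0.32, adjusted p = 2.5e-06 in edgeR). Ccl5, which lymphocytes also make and which stood on the T and NK list, was at 62.5 and 40.4 CPM against 2.04 and 2.12 (log2 4.63, adjusted p = 1.4e-06). Ccl6 and Ccl9 were lower. Ccl6 stood at 180 and 203 CPM in liver against 603 and 904 in blood (log2 -1.98, adjusted p = 8.6e-05) and Ccl9 at 286 and 320 against 549 and 764 (log2 -1.11, adjusted p = 0.00204). Of 14 chemokine receptors 7 were higher and 2 lower (Ccr2 and Ccr1). Ccr1 was at 47.1 and 39.2 CPM against 81.2 and 114 (log2 -1.17), and Cx3cr1, the fractalkine receptor, did not pass (701 and 783 against 745 and 879 CPM, adjusted p = 0.674). Adhesion genes were split, 12 higher and 7 lower of 26 (4 lower without liver replicate 1). Itga4, the alpha 4 integrin of circulating cells, was lower (818 and 896 against 1416 and 2143 CPM, adjusted p = 0.000587), and Itgax, the CD11c chain of tissue phagocytes, higher (285 and 356 against 36.1 and 33.1, log2 3.21, adjusted p = 9.85e-07).

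Of 36 transcription factor genes of macrophages 14 were higher, 2 lower and 20 not called. Over all genes tested 27.3% were higher and 21.3% lower, and 7407 of 14407 were not called. Spi1 and Irf8, which define the lineage, did not pass (531 and 507 against 605 and 484 CPM, adjusted p = 0.669 in edgeR, and 335 and 345 against 427 and 413, adjusted p = 0.116). Maf, a factor of resident macrophages, was at 234 and 175 CPM against 47.7 and 67.7 (log2 1.83 ± 0.24, adjusted p = 0.00011). Pparg, a lipid-sensing receptor, was at 24.7 and 22 against 4.36 and 5.94 (log2 2.20 ± 0.21, adjusted p = 1.11e-05). Klf4, needed for monocyte formation, was lower (109 and 87.8 against 300 and 286 CPM, log2 -1.57, adjusted p = 0.00445), as was Irf4 (36.0 and 19.7 against 82.5 and 83.4, log2 -1.58, adjusted p = 0.00031). For Maf, Pparg, Klf4 and Irf4 the liver and blood libraries did not overlap, as in 74.7% of all genes tested. For Spi1 they did.

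Signalling and growth factor genes followed. Among Notch and TGF-beta genes 20 of 28 were higher and 1 lower (median log2 1.78). Eng, a member, also stood on the endothelial list. Tgfbr1, a receptor for TGF-beta, was at 355 and 448 CPM against 130 and 153 (log2 1.5 ± 0.16, adjusted p = 3.47e-05 in edgeR), and its inhibitor Smad7 at 50.5 and 56.9 against 18.8 and 17.8 (log2 1.55). Dll4, a Notch ligand that endothelium makes, was at 11.6 and 12.6 CPM with 1 count in blood and at 4.73 in Ly6C-low macrophages, and Jag1 at 17.9 and 19.8 against 2.65 and 3.99 (37.0 in Ly6C-low macrophages). What part of the Dll4 and Jag1 levels came from endothelial RNA was not tested. Csf1r, the receptor for the main macrophage growth factor, was 1.53-fold higher (3286 and 3525 against 2215 and 2233 CPM, adjusted p = 0.00177). Igf1, an insulin-like growth factor of tissue macrophages and hepatocytes, was at 41.3 and 41.9 CPM against 0.190 and 0.326 (log2 7.39, adjusted p = 3.15e-08), and scaled whole liver made up 31.4% of its liver level. Of 24 matrix genes 14 were higher and 3 lower, led among those detected in blood by Mmp14, a membrane-bound collagenase (NM_008608, chromosome 14, 54431598 to 54442456), at 401 and 428 CPM against 15.5 and 12 (log2 4.90 ± 0.54, adjusted p = 3.7e-05). Igfbp4 and Col4a1 had high folds as well (114 and 178 against 6.78 and 3.83 CPM, and 73.7 and 102 against 5.21 and 5.62). Both were higher in each liver Ly6C-high library than in all 6 libraries of the other gates, as most endothelial genes were, and scaled whole liver made up 31.8% and 5.30% of them, while Mmp14 had a higher mean in Ly6C-low macrophages (653 CPM).

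Of 29 inflammatory genes 9 were higher and 3 lower (median log2 0.33), against 27.3% and 21.3% of all genes tested. Il1b, a cytokine of activated monocytes, was at 68.0 and 70.5 CPM against 15.3 and 21.6 (log2 1.92 ± 0.19, adjusted p = 1.39e-05 in edgeR), and its antagonist Il1rn at 127 and 158 against 19.1 and 18.8 (log2 2.91 ± 0.22, adjusted p = 2e-06). Socs3, a brake on cytokine signals, was lower (83.1 and 60.8 against 163 and 155 CPM, log2 -1.15, adjusted p = 0.00349). Of 28 interferon response genes 10 were lower and 3 higher, with a median log2 fold of -0.61, but 6 were lower without liver replicate 2 and 5 without blood replicate 2. Irf9, a factor that carries the interferon signal, was at 130 and 97.6 CPM against 197 and 211 (log2 -0.85, adjusted p = 0.0034 in edgeR).

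Of 25 cell cycle genes 15 were higher and 1 lower (median log2 0.91; 9 higher without liver replicate 1), from a low base. Top2a, which untangles DNA in dividing cells, was at 13.5 and 11.3 CPM against 1.28 and 2.36 (log2 2.84 ± 0.27, adjusted p = 1.4e-05 in edgeR), and Mki67, the antigen of cycling cells, did not pass (34.0 and 31.2 against 35.4 and 43.3, adjusted p = 0.126). Summed, the list stood at 226 and 214 CPM in liver, 171 and 162 in blood, and 707 to 924 in the other NASH liver gates, and all 25 genes lay below all 6 libraries of those gates. Oxidative phosphorylation (4 higher, 8 lower of 29) and glycolysis and hypoxia genes (4 higher, 6 lower of 24; 3 lower without liver replicate 2) had medians near 0. The oxidative list changed with the settings, from 1 to 8 higher and from 4 lower without liver replicate 1 or blood replicate 1. Eno1, a glycolytic enzyme, was lower (93.8 and 108 against 251 and 202 CPM, log2 -1.16 ± 0.16, adjusted p = 0.000151). Of the cholesterol synthesis genes 7 of 22 were higher and 3 lower, and 4 stayed higher without liver replicate 2, without blood replicate 2 or with the scaled references subtracted. The shares over all genes tested were 27.3% higher and 21.3% lower. Fth1, the heavy chain of the iron store ferritin, was at 2169 and 1853 CPM against 710 and 685 (log2 1.53 ± 0.20, adjusted p = 0.000123 in edgeR).

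The lower side held fewer large changes, with genes of the ribosome among the largest. Of the 15 lower genes with the largest folds at 5 CPM or more in both groups, 3 had transcripts of up to 1000 bases. Among the lowest by fold, of genes at 5 CPM or more in both groups, was Tmsb10, an actin-binding peptide (15.6 and 21.4 CPM in liver against 346 and 153 in blood, log2 -3.75, and -3.05 without blood replicate 1). Of 68 ribosomal protein genes 44 were lower and 3 higher, unevenly: Rps28 was at 0 and 0.175 CPM in liver against 46.7 and 29.6 in blood, and Rps2 did not pass (log2 -0.11). Rps28 also split libraries of Kupffer cells. In plain CPM of the library total it was at 29.4 to 48.8 in blood and 0 to 0.208 in all 10 liver libraries of the set. In Kupffer cells of the diet time course it was at 18.0 to 28.1 after 1, 4 and 10 weeks (7 libraries) and at 0 to 0.654 after 0, 20 and 30 weeks (10 libraries). For Rps28 and genes like it, blood against liver and kind of library cannot be told apart. Of all genes tested 459 (3.19%) split the Kupffer time course. Their mean levels were at least 2-fold higher at 1 and 4 weeks than at 0, 20 and 30 weeks, without overlap. The 10 week libraries did not enter this rule, and the hepatocyte genes Alb, Cyp2e1 and Ahsg met it too. It took in 77 of 3067 genes called lower (2.51%) and 351 of 3933 called higher (8.92%). Past 2-fold it took in 43 of 323 lower genes (13.3%), and 18 of the 975 higher genes that were detected in blood and not set apart (1.85%). Transcripts of up to 1000 bases were lower past 2-fold in 5.82% and longer ones in 1.92%.

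Among the 15 lower genes with the largest folds, some did not split the time course. Neat1, a long nuclear RNA (NR_131212, chromosome 19, 5824710 to 5845478), was at 213 and 229 CPM in liver and 1527 and 986 in blood (log2 -2.51 ± 0.22, adjusted p = 6.33e-06 in edgeR). Slfn1, a schlafen gene of leukocytes, was at 98.4 and 52.5 CPM against 365 and 506 (log2 -2.53 ± 0.46, adjusted p = 0.00101). Clec2d, a lectin that NK cells recognise, was at 25.1 and 24.0 against 109 and 159 (log2 -2.45 ± 0.33, adjusted p = 0.000152). Rbm3, a cold-shock RNA-binding protein, was at 7.84 and 7.23 CPM against 54.2 and 56.4 (log2 -2.87 ± 0.19, adjusted p = 1.14e-06). In all 4 genes both liver libraries were below both blood libraries, which the rule that picked the 15 genes required. Neat1 and Rbm3 stood near the same level in the other NASH liver gates (means of 192 to 232 and 5.25 to 6.72 CPM), whereas Slfn1 was lower there (8.01 to 15.6 CPM).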

How the data were processed

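The authors deposited raw counts and TPM (levels scaled by transcript length) per RefSeq transcript for every library. STAR, HOMER and DESeq2 and the builds mm10 and GRCm38 are named in the submitters' processing notes, without versions. The deposited counts were reduced from 40458 transcripts to 24940 genes by the transcript with the highest total, and 2 entries without a gene name (1.53e-05% of counts) were left out. Deposited TPM served only to compare levels between genes and for the limma alternative, on log2(TPM + 1).

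Genes were filtered with edgeR's filterByExpr (minimum count 10, total 15) and fitted in edgeR 4.0.16 (R 4.3.3) over 12 libraries of 6 groups with TMM scaling and a quasi-likelihood test (biological coefficient of variation 0.168, 6 residual degrees of freedom). glmTreat tested against a 2-fold change. The SE is the log2 fold over the root of the test's F. Tested on simulated data of 14407 genes, the fit called 45% of 2-fold and 81% of 4-fold changes and 4 unchanged genes. In the simulation 100 genes changed 2-fold and 100 changed 4-fold, against 7000 called here, so its rates may not carry over. Folds against a group at 0 use a floor of 3 counts over its libraries (0.0898 CPM in blood), which covers counting error only.

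The members and the 41 gene lists were chosen with earlier results of these data known, and lists have no test. Some lists of monocyte and macrophage biology share members with the lists of other cells, and their counts keep these members. Named by rule, some left out where another says the same, were the 15 genes with the largest folds each way (called past 2-fold, 5 CPM or more in both groups, no overlap; of the higher ones, only those detected in blood and not set apart), the 8 with the highest liver level among those set apart at 3 counts or fewer in blood, the 4 highest members of each list (called members in lists of monocyte biology) and the gate genes. Other genes named were chosen after their values were seen, as were the place among the gates and the promoter letters. Promoter windows are RefSeq's, of GRCm38.p6. Alternatives were DESeq2 1.42.0, limma 3.58.1, other scalings, filters and transcripts, a fit of both groups only, subtracted references, a replicate block and leaving out each library. Replicate numbers did not pair liver with blood. A few genes that the rule names are not reported here.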

Additional observations from a re-analysis of the deposited data

How the results depend on the processing

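Among 167 named genes that were called, 121 kept their call under all 13 alternatives, and over all genes calls in the opposite direction occurred only with the scaled references subtracted (8) and with the longest transcript per symbol (2). Cd5l (log2 -2.29) and Clec4f (-3.13) turned with the references subtracted, with adjusted p = 0.507 and 0.258 in edgeR. Both helped to set the Kupffer scale, so a fall was built into that setting. The lower side was the less firm. Genes lower in liver were 2002 in a fit of both groups only and 1990 to 2449 with 1 library left out (1990 without liver replicate 1). Past 2-fold they were 112 in DESeq2, 108 in limma and 196 to 246 with 1 library left out (196 without blood replicate 2), and higher past 2-fold were 990 in limma. Fewer samples leave fewer degrees of freedom in the fits with less than 12 libraries; for the other settings the cause was not tested. Calls were 55.6% to 65.4% higher over the alternatives.

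Replicate numbers did not pair liver with blood: deviations of libraries with the same number correlated at -0.07 between the groups. Among the 4 NASH liver gates they correlated at 0.288 to 0.494, which the spread shared over the groups does not take into account. With a replicate block 4014 genes were higher and 3211 lower, and 2518 and 369 past 2-fold.

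Set by Clec4f alone, the Kupffer scale was 0.826% and 1.21%, and with niche macrophages as reference 2.09% and 3.36%. At 20% in place of 50%, 809 genes fell to scaled whole liver and 55 to scaled Kupffer cells. With 2 libraries a group, p below 0.05 rests on the spread shared over 6 groups. A count of 0 in blood allows up to 0.0898 CPM over both libraries.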

Other observations

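Immediate early and heat shock genes had a higher sum in replicate 1 than in replicate 2 of all 4 NASH liver gates. The sum was 4096 CPM in replicate 1 and 2290 in replicate 2 of the liver Ly6C-high cells, 3946 and 2477 in Ly6C-low macrophages, 3868 and 1886 in niche macrophages and 3629 and 1722 in NASH Kupffer cells. In blood the sums were 3746 and 4173 CPM. Of 28 such genes 9 were higher in liver than in blood and 8 lower (4 lower without liver replicate 2, 5 without blood replicate 1 or blood replicate 2). The shares over all genes tested were 27.3% higher and 21.3% lower. Hspa1a, a heat shock chaperone, stood at 410 and 53.9 CPM in liver and 1.37 and 1.87 in blood. Its log2 fold was 7.19 (adjusted p = 0.00445 in edgeR), 5.08 without liver replicate 1 and 8.02 without liver replicate 2. Jun, an immediate early gene, was at 134 and 70.6 CPM against 17.0 and 15.8 (log2 2.64, adjusted p = 0.00128), and Klf2, a transcription factor, was lower at 162 and 59.8 against 588 and 610 (log2 -2.44, adjusted p = 0.0048; -3.33 without liver replicate 1).

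Rn45s, the precursor of ribosomal RNA, which carries no long poly(A) tail, was at 9933 and 17032 CPM in liver and 816 and 463 in blood (log2 4.40 ± 0.75, adjusted p = 0.000656 in edgeR). Wfdc17, a secreted anti-protease of myeloid cells, was lower in liver Ly6C-high cells (29.2 and 31.6 against 131 and 160 CPM, log2 -2.26 ± 0.20, adjusted p = 7.14e-06) and reached means of 208 CPM in niche macrophages and 300 in NASH Kupffer cells. Slc40a1, the iron exporter, was at 36.0 and 61.9 CPM against 0.664 and 1.14 (log2 5.84, adjusted p = 4.89e-07), with a mean of 2060 in NASH Kupffer cells, and the scaled Kupffer reference made up 47.8% of its liver level.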
